A study of Mus musculus with 6 samples.

Results

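The 10 genes described here take part in glucose use and in the response to low oxygen: Slc2a1, Hk1, Hk2, Pfkp, Pfkfb3, Slc16a3, Pdk1, Bnip3, Vegfa and Egln3. They were found on the array through the platform's annotation, as every probe set (the group of short DNA probes whose signals are combined into a single value) with exactly 1 of these symbols. This gave 12 probe sets for the 10 genes, with 2 each for Hk1 and Bnip3, out of 23410 tested and 35557 on the array. They are 10 of the 19938 genes with a probe set of their own. The samples were primary microglia, the resident macrophages of the brain, from the cerebral cortex of mice aged 2 days. The labels give 10 days of culture before collection and a further 24 h after replating, and no treatment. The 3 wild-type arrays came from C57BL/6J mice, and the 3 fosB-null arrays from mice homozygous for fosBG, a null allele of the AP-1 transcription factor gene Fosb carried on C57BL/6J to generation N20. The arrays are numbered 1 to 3 in each group and called biological replicates. The labels do not say whether a number stands for a litter or a culture, so p-values measure the spread between these arrays.

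Cells take up glucose through facilitative transporters, trap it as glucose 6-phosphate with hexokinases and commit it to glycolysis at phosphofructokinase. When oxygen falls, prolyl hydroxylases stop marking hypoxia-inducible factors for destruction, and these factors, bound to DNA with their partner ARNT, raise transcription of glycolytic enzymes, of pyruvate dehydrogenase kinase, of angiogenic ligands and of the hydroxylases themselves. Microglia are known to shift towards glycolysis when they are activated by bacterial products. The cultures studied here were not stimulated.

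Hypoxia-inducible factors bind the core letters ACGTG or GCGTG, and AP-1 dimers such as those with FosB bind TGANTCA, so the 250 bases before each RefSeq start site (GRCm38.p6) were searched for these letters on both strands. The 10 members had 14 such windows. ACGTG was found in 8 of the 14 windows, from 7 genes, against 16.6% of 32851 windows of the same length over all genes. GCGTG was found in 7 of 14, against 28.2%. The palindrome CACGTG, which holds ACGTG on each strand, was in 2 of 14, against 6.02%. The windows were not matched for GC content, and the members were listed for glucose use and the response to low oxygen. None of these shares was tested. No window held TGANTCA, against 6.75% of all windows, which says only that these letters are not in these 250 bases. The windows of Egln3, Bnip3 and Vegfa are shown because these genes had the largest differences described below, and that of Slc16a3 because it holds ACGTG at 27 and at 14 bases before the start. Capitals mark ACGTG read on either strand.
Egln3, chr12:54203875-54204124, minus strand: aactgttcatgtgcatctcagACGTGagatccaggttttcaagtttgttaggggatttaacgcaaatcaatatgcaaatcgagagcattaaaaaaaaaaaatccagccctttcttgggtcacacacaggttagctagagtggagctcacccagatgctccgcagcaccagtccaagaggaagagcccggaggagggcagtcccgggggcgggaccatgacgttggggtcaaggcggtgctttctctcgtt
Bnip3, chr7:138909507-138909756, minus strand: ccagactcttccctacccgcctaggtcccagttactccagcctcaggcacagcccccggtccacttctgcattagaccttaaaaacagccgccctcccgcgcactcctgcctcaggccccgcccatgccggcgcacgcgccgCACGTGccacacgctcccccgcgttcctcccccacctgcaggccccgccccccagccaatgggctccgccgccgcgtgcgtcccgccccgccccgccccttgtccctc
Vegfa, chr17:46032378-46032627, minus strand: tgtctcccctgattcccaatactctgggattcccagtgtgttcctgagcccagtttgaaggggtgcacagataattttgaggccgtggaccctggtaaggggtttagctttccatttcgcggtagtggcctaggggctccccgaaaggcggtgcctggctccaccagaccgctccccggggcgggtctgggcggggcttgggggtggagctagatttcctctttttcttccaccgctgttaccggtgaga
Slc16a3, chr11:120948817-120949066, plus strand: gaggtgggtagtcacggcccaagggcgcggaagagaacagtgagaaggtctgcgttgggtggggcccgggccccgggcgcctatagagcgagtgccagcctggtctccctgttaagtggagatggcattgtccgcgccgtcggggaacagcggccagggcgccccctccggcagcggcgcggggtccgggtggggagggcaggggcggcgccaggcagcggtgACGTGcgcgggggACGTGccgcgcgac
In Egln3 the match began 229 bases before the start. In Bnip3 it was a CACGTG beginning 108 bases before. The Vegfa window shown had no match, and a second RefSeq start of this gene had a single match. GC content was 50.8% in the Egln3 window, 72.4% in Bnip3, 59.2% in Vegfa and 73.6% in Slc16a3.

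No member differed between fosB-null and wild-type microglia beyond the spread between arrays in a limma fit that left out the pairing of same-numbered arrays. In the limma fit, adjusted by Benjamini-Hochberg over all 23410 probe sets, 0 of 12 member probe sets passed 0.05, where 0.00427% of all probe sets did. Every member had an adjusted p of 1. At an unadjusted limma p under 0.05 there were also 0 of 12, where the share over all probe sets was 0.722%. With the array number as a random block (limma, duplicateCorrelation) there were 2 of 12, where the share was 9.63%. None of the members passed the adjusted threshold with that block. That block estimated a correlation of 0.956 between same-numbered arrays. The standard errors and intervals below come from the fit without a block, so they take no account of this pairing. The groups overlapped or touched in all 12, and 1.12% of all probe sets had groups that did not overlap. The fosB-null mean was below the wild-type mean in 7 of the 12 probe sets and above it in 5. Over all 23410 it was below in 9657, above in 7243 and level in 6510. The median difference, fosB-null minus wild-type in log2 signal, was -0.05, beside 0.00 over all tested probe sets. The widest differences were those of Egln3, Vegfa and a Bnip3 probe set, all below 0, and the largest above 0 was that of Slc2a1.

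**Figure D1:**
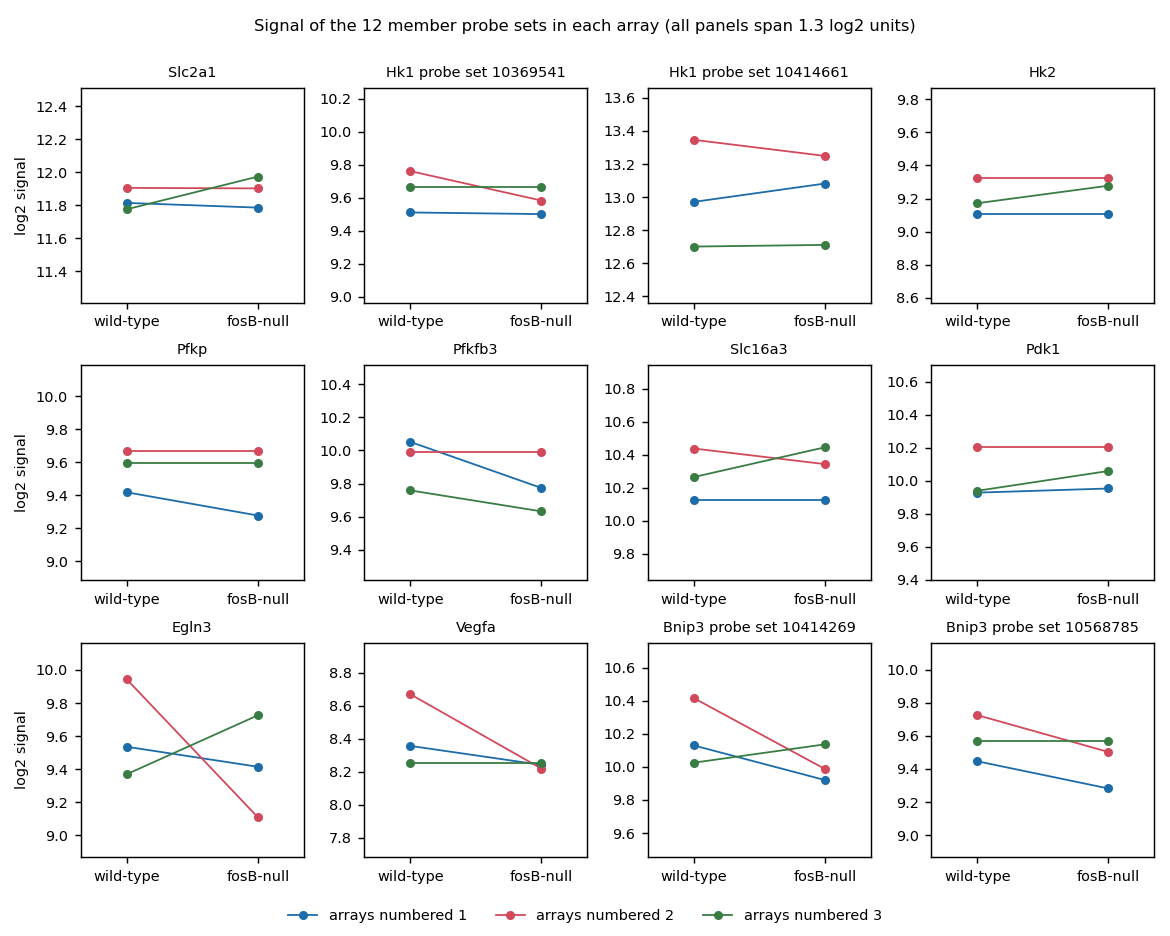
Log2 signal of each member probe set in the 6 arrays, with wild-type on the left, fosB-null on the right, and a line joining same-numbered arrays. Every panel spans the same number of log2 units. Egln3 spreads most, from 9.11 to 9.94, and in no panel do the 2 groups separate.

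Slc2a1 encodes the main glucose transporter of glia and macrophages. Its log2 signal was 11.81, 11.91 and 11.78 in wild-type arrays 1 to 3 and 11.79, 11.90 and 11.97 in fosB-null arrays 1 to 3. All arrays lay close together, and fosB-null array 3 was the highest. The difference was 0.06 with a standard error of 0.08 and a 95% interval from -0.13 to 0.24, which in linear terms is 0.912 to 1.18 times the wild-type signal. This was the narrowest interval among the members.

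Hexokinases catalyse the first step of glycolysis. Hk1 is the form of most tissues and Hk2 the inducible form, and each can bind mitochondria. Hk2 gave 9.11, 9.33 and 9.17 in wild-type and 9.11, 9.33 and 9.28 in fosB-null arrays. The values in pairs 1 and 2 were exactly the same, so its difference of 0.04 (standard error 0.09, interval -0.19 to 0.26) came from array number 3. For Hk1, probe set 10369541 gave 9.51, 9.76 and 9.66 in wild-type and 9.50, 9.58 and 9.66 in fosB-null arrays. Here array 2 alone differed visibly, and the fitted difference was -0.06 (standard error 0.09, interval -0.28 to 0.15). Probe set 10414661 gave 12.97, 13.35 and 12.70 in wild-type and 13.08, 13.25 and 12.71 in fosB-null arrays, a difference of 0.01 (standard error 0.20, interval -0.46 to 0.48). It varied with the array number far more than with genotype. The platform table ties this probe set to Hk1 through 1 accession only, and all 16 probe sets that list Hk1 beside other genes carry the same accession together with Rpl17, a ribosomal protein gene. Its signal is therefore uncertain as a measure of Hk1. Without it the median difference of the other 11 member probe sets was -0.06.

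Phosphofructokinase sets the pace of glycolysis. Pfkp encodes its platelet-type subunit, and Pfkfb3 encodes the enzyme that makes fructose 2,6-bisphosphate, its strongest activator. Pfkp gave 9.42, 9.67 and 9.59 in wild-type and 9.28, 9.67 and 9.59 in fosB-null arrays. Only array 1 differed, pairs 2 and 3 being exactly equal, and the difference was -0.05 (standard error 0.12, interval -0.34 to 0.25). Pfkfb3 gave 10.05, 9.99 and 9.76 in wild-type and 9.77, 9.99 and 9.63 in fosB-null arrays. It was below wild-type by 0.28 in pair 1 and by 0.13 in pair 3 and tied in pair 2. The difference was -0.14 (standard error 0.12, interval -0.42 to 0.15).

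Slc16a3 encodes a monocarboxylate transporter that carries lactate out of glycolytic cells, and Pdk1 encodes a kinase that switches off pyruvate dehydrogenase and so keeps pyruvate from the mitochondrion. Slc16a3 gave 10.13, 10.44 and 10.27 in wild-type and 10.13, 10.34 and 10.45 in fosB-null arrays. Pair 1 was tied, pair 2 lower and pair 3 higher in fosB-null, and the difference was 0.03 (standard error 0.12, interval -0.25 to 0.30). Pdk1 gave 9.93, 10.21 and 9.94 in wild-type and 9.95, 10.21 and 10.06 in fosB-null arrays. No pair was lower in fosB-null, and the difference was 0.05 (standard error 0.11, interval -0.21 to 0.30).

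Egln3 encodes a prolyl hydroxylase that marks hypoxia-inducible factors when oxygen is present and is itself induced by them. It had the widest spread of any member, with 9.54, 9.94 and 9.37 in wild-type and 9.41, 9.11 and 9.73 in fosB-null arrays. Number 2 was the highest of the wild-type arrays and the lowest of the fosB-null arrays, and number 3 was the reverse. The group means were 9.62 ± 0.30 in wild-type and 9.42 ± 0.31 in fosB-null (SD, n = 3 each). The difference of -0.20 had a standard error of 0.20 and an interval from -0.67 to 0.27. It was -0.04 without wild-type array 2 and 0.12 without both arrays numbered 2.

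Vegfa encodes the angiogenic ligand that hypoxic cells release to draw in blood vessels, and it had the lowest unadjusted p among the members (limma, 0.142). Its log2 signal was 8.36, 8.67 and 8.25 in wild-type and 8.24, 8.22 and 8.25 in fosB-null arrays. The fosB-null arrays were almost level, with an SD of 0.02 against 0.22 in wild-type, and wild-type array 2 stood above the rest. Arrays numbered 3 held the same value in each group, so the groups touch there. The difference was -0.19 (standard error 0.11, interval -0.46 to 0.08), and -0.07 without wild-type array 2.

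Bnip3 encodes a receptor on the outer mitochondrial membrane that recruits mitochondria into autophagy under hypoxia. Its 2 probe sets carry the same accessions, and their r over the 6 arrays was 0.821. Which of them is the better measure of Bnip3, and where on the genome their probes lie, was not analysed here. Probe set 10568785 gave 9.45, 9.73 and 9.57 in wild-type and 9.28, 9.50 and 9.57 in fosB-null arrays. It was lower in pairs 1 and 2 and tied in pair 3, with a difference of -0.13 (standard error 0.11, interval -0.39 to 0.13). Probe set 10414269 gave 10.13, 10.42 and 10.03 in wild-type and 9.92, 9.99 and 10.14 in fosB-null arrays. It too was lower in pairs 1 and 2, but higher in pair 3, with a difference of -0.18 (standard error 0.12, interval -0.46 to 0.11) that was -0.06 without wild-type array 2. Bnip3 is the only member on chromosome 7, where Fosb also lies, and in RefSeq's gene order 1344 other measured genes separate the 2 genes.

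**Figure D2:**
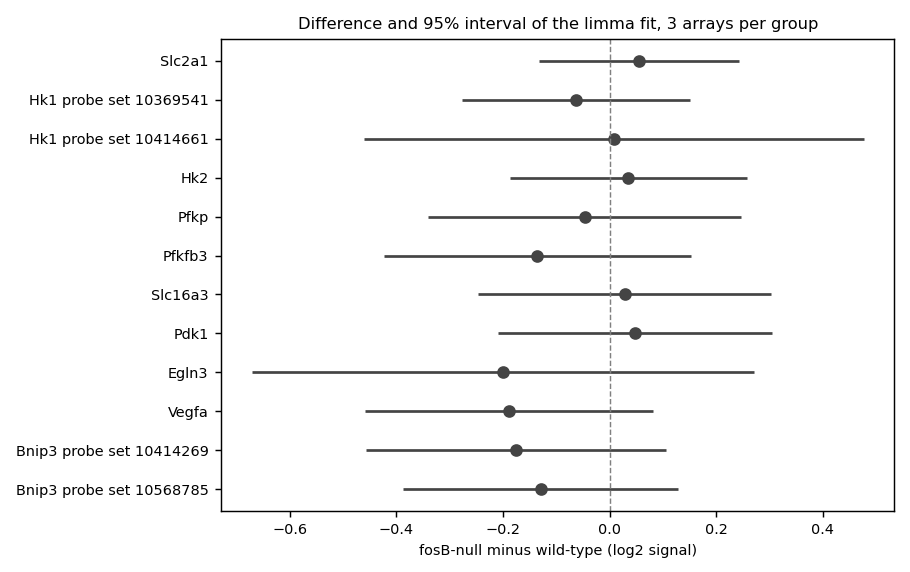
Difference between the groups for each member probe set (points), in log2 signal, fosB-null minus wild-type, with 3 arrays in each group. Lines are 95% intervals from the limma fit without a replicate block, which leaves out the pairing of same-numbered arrays. Every interval crosses 0, including that of Egln3, which is farthest from 0 at -0.20, and that of Slc2a1, which is the narrowest, from -0.13 to 0.24.

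The direction of the members differed between the pairs of same-numbered arrays. Among the 12 member probe sets, pair 1 had 8 lower in fosB-null, 2 tied and 2 higher. Pair 2 had 8 lower, 4 tied and 0 higher. Pair 3 turned the other way, with 1 lower, 4 tied and 7 higher. Of all 23410 tested probe sets, 4655 were lower, 14573 tied and 4182 higher in pair 1. In pair 2 these counts were 5142, 12797 and 5471, and in pair 3 they were 7354, 13114 and 2942. The median difference was -0.07 in pair 1, -0.10 in pair 2 and 0.06 in pair 3. None of the members was lower in all 3 pairs, as 5.57% of all probe sets were, and none was higher in all 3, as 2.2% were. A difference of at least 0.3 below 0 was seen in pair 2 for 3 of 12 member probe sets, where 1.64% of all probe sets had it. These were Egln3 at -0.84, Vegfa at -0.45 and Bnip3 probe set 10414269 at -0.43. In pair 3 a difference of at least 0.3 above 0 was seen for 1 of 12, Egln3 at 0.36, where 0.636% of all probe sets had it. The other counts of this size were 0 of 12: in pair 1 below 0 (0.803% of all probe sets) and above 0 (1.15%), in pair 2 above 0 (1.71%) and in pair 3 below 0 (0.82%). The size of 0.3 was chosen with the values in view.

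Exact ties were part of this pattern. Members were tied in 10 of 36 comparisons within pairs, or 27.8%, against 57.6% over all tested probe sets. No source used here explains the ties, and a tie does not measure equality. None of the 12 was tied in all 3 pairs, whereas 27.8% of all tested probe sets were. A low share of ties was not particular to the members. It was 15.3% for proliferation genes and 26.2% for microglia markers, but 76.7% for neuron and 83.3% for astrocyte markers.

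**Figure D3:**
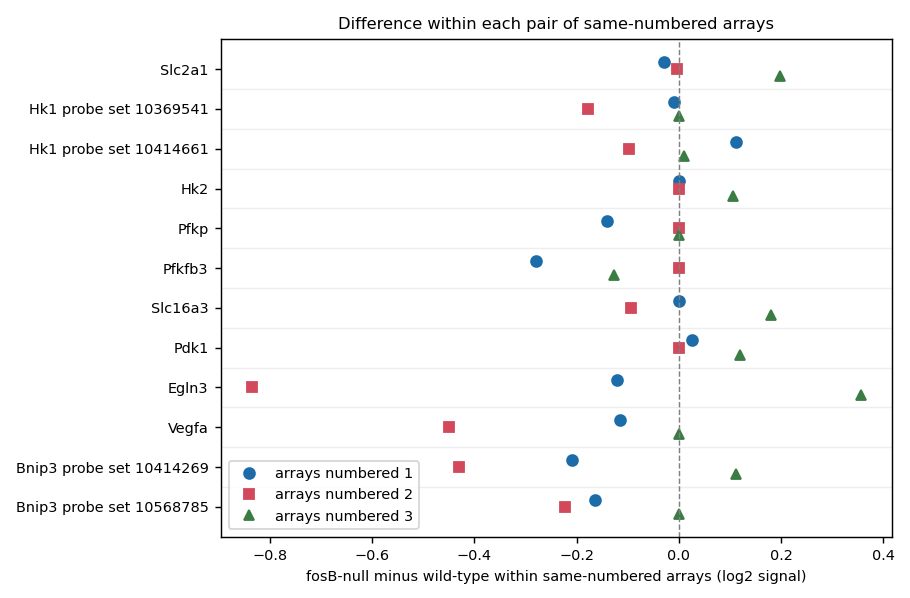
Difference in log2 signal between fosB-null and wild-type arrays of the same number, for each member probe set, with a marker for each of the 3 pairs. Egln3 runs from -0.84 in pair 2 to 0.36 in pair 3, and markers at exactly 0 are ties.

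The 4 probe sets of Egln3, Vegfa and Bnip3 were lower in fosB-null in every comparison of pairs 1 and 2, and in pair 3 there were 2 tied and 2 higher. Their median difference was -0.14 in pair 1, -0.44 in pair 2 and 0.06 in pair 3. The 8 probe sets of glucose handling had median differences of -0.0050, -0.0015 and 0.06. Of these 8, pair 1 had 4 lower, 2 tied and 2 higher, and pair 2 had 4 lower, 4 tied and 0 higher. Pair 3 had 1 lower, 2 tied and 5 higher. This grouping was made with the values in view and was not tested. Pearson's r over the 6 arrays, which share pairs and many ties, is given as a description. It was 0.777 between Egln3 and Vegfa. Bnip3 probe set 10414269 had an r of 0.858 with Egln3 and 0.928 with Vegfa, but probe set 10568785 had 0.561 and 0.659, and its closest member was Hk1 probe set 10369541 at 0.939. With Egln3 the members of glucose handling ran from -0.073 for Pfkfb3 to 0.599 for Hk1 probe set 10369541, with Slc16a3 at 0.438. With Vegfa they ran from 0.202 for Slc2a1 to 0.611 for Hk1 probe set 10369541. With Egln3, the r of Bnip3 probe set 10568785 thus lay within the range of glucose handling. With Vegfa it lay a little above that range. Without wild-type array 2, a choice made after the values were seen, r was 0.452 between Egln3 and Vegfa, 0.683 and 0.628 for Bnip3 probe set 10414269 with them, and 0.119 and -0.064 for probe set 10568785.

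Pearson's r over the 6 arrays was compared among 9384 other named genes with a mean signal above the median of tested probe sets. Closest to Egln3 were Rcbtb2 at 0.961, Naip2, a sensor of bacterial secretion systems, at 0.959, and Aldh3b1, an aldehyde dehydrogenase, at 0.921. Their own range over the arrays was smaller, at 0.26, 0.15 and 0.21 log2 units against 0.84 for Egln3. Closest to Vegfa were Sra1 at 0.997, Card19 at 0.993 and Klf10, a zinc finger transcription factor, at 0.988. All 3 were tied in pair 3 and lower in pairs 1 and 2, as Vegfa was, a likeness built in by their choice on r. The r values named here are the highest of 9384 from only 6 arrays, and none was tested. Bnip3, by probe set 10414269, was number 34 in the order for Egln3 and number 81 in that for Vegfa.

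The other genes of glycolysis and lactate handling differed in both directions, with many exact ties. Of 31 listed, 25 had a probe set of their own. Of these 12 were above wild-type, 10 below and 3 at a difference of 0, with a median of 0.00 and 0 past the adjusted limma threshold. Ldhb, the lactate dehydrogenase subunit of oxidative tissues, was the 1 gene with an unadjusted limma p under 0.05, where 0.722% of all probe sets had one. It gave 9.92 ± 0.13 in wild-type and 9.69 ± 0.11 in fosB-null (SD, n = 3 each), a difference of -0.23 with an adjusted limma p of 1, and pair 3 was tied. Eno2, an enolase best known from neurons, differed by -0.21 and was lower in each pair, at -0.19, -0.27 and -0.17. Under a random replicate block (limma, duplicateCorrelation) the unadjusted p of Eno2 was 0.00025 and its adjusted p 0.0741, above the threshold. Pgk1, phosphoglycerate kinase and a classic target of hypoxia-inducible factors, differed by 0.07 and was higher in each pair, at 0.01, 0.13 and 0.08.

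The oxygen-sensing machinery showed 0 genes past the adjusted limma threshold and 0 at an unadjusted p under 0.05. All 16 listed genes were measured, 12 below wild-type, 3 above and 1 at 0, with a median of -0.02. Mxi1, a MAX partner induced by hypoxia, differed by -0.17 (pairs -0.16, -0.33 and -0.03). Epas1, which encodes a hypoxia-inducible factor subunit, differed by -0.13, and Elob, a part of the ubiquitin ligase that removes these subunits, by -0.09. Hif1a, the best-known subunit, gave 11.69 ± 0.06 in each group, a difference of 0.00 with an interval from -0.16 to 0.17. Its pairs 1 and 2 were exact ties, which do not measure equality, and pair 3 was at 0.013. Egln1, the main oxygen sensor of the family, was tied in all 3 pairs. Hif1a and Egln1 were picked by hand as the pathway's centre.

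Other hypoxia-induced genes went both ways. Of 26 listed, 24 were measured, 9 above wild-type, 11 below and 4 at 0, with a median of 0.00 over all arrays. The median was 0.00 in each pair too, where 18, 8 and 11 of the 24 were exact ties in pairs 1, 2 and 3. Bnip3l, the close relative of Bnip3, was lower in each pair, at -0.09, -0.12 and -0.04, and was picked after its values were seen. Tfrc, the transferrin receptor, differed by 0.14, Angptl4, an inhibitor of lipoprotein lipase, by -0.14, and Ak4, a mitochondrial adenylate kinase, by 0.20, the last from pair 3 at 0.64. None of the 24 had an unadjusted limma p under 0.05.

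Downstream of glycolysis, 13 of 14 listed genes for pyruvate entry to mitochondria were measured, 3 above wild-type, 7 below and 3 at 0, with a median of 0.00. Pdp1, the phosphatase that reverses the action of Pdk1, differed by -0.14, Pdk2 by -0.11 and Mpc1, a subunit of the mitochondrial pyruvate carrier, by -0.08. Among 9 genes of the VEGF family and its receptors, the semaphorin and VEGF co-receptor Nrp1 had the lowest p (limma unadjusted p = 0.0506, adjusted p = 1). It gave 12.11 ± 0.11 in wild-type and 12.30 ± 0.05 in fosB-null (SD, n = 3 each), and was higher in each pair, at 0.32, 0.15 and 0.10. The receptor genes Kdr and Flt1 differed by -0.08 and 0.08. In these 2 lists 0 genes passed the adjusted limma threshold, and 0 had an unadjusted p under 0.05.

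**Figure D4:**
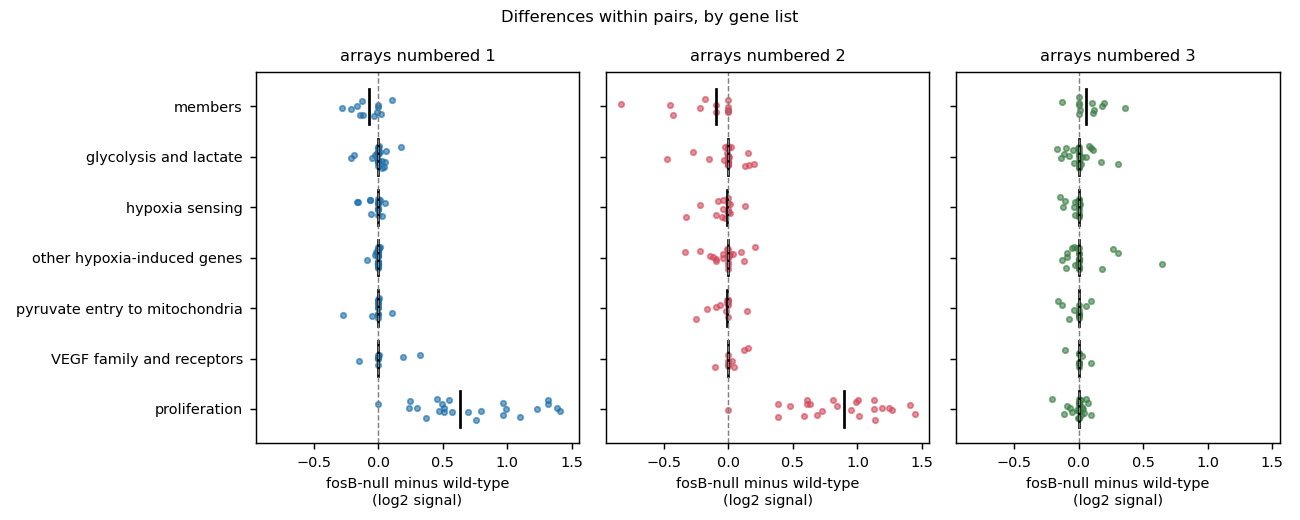
Differences in log2 signal within each pair of same-numbered arrays, fosB-null minus wild-type, for the member probe sets and for 6 gene lists, with a point for each probe set or gene and a black bar at the median. The member median moves from -0.10 in pair 2 to 0.06 in pair 3, while that of proliferation genes is 0.64, 0.90 and 0.00 in pairs 1, 2 and 3.

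Proliferation genes also differed between pairs. All 24 measured proliferation genes had a fosB-null mean above wild-type, as 7243 of all 23410 tested probe sets did. Their median difference was 0.64 in pair 1, 0.90 in pair 2 and 0.00 in pair 3. In the fit without a block 0 passed the adjusted limma threshold. At an unadjusted limma p under 0.05 there were 5, where the share over all probe sets was 0.722%. Under a random replicate block (limma, duplicateCorrelation) 22 of 24 had an unadjusted p under 0.05, where 9.63% of all probe sets did, and 0 passed the adjusted threshold. At that block the counts were 2 of 12 for the members, 4 of 25 for glycolysis and lactate, 3 of 16 for oxygen sensing, 3 of 24 for other hypoxia-induced genes, 2 of 13 for pyruvate entry and 2 of 9 for the VEGF family, with 0 in each past the adjusted threshold. Pairs 1 and 2, where Egln3, Vegfa and Bnip3 were lower in fosB-null, were the pairs with higher proliferation genes. Among 10 oligodendrocyte lineage markers, Cspg4 differed by -0.36, -0.43 and 0.20 in pairs 1, 2 and 3 and Mbp by -0.32, -0.24 and -0.06, while the median of the list was 0.00 in each pair, with 5, 7 and 6 of the 10 tied. The part of proliferation or of these other cells in the members' values was not tested. In bulk RNA, fewer cells of a type and less RNA per cell cannot be told apart.

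The cultures were checked against cell type markers. Over the means of all tested probe sets, the middle value was 8.06 and the upper quartile 10.03. Of 14 measured microglia markers, 13 had a mean above that middle value and 8 above that quartile. This comparison is coarse because probe sets differ in brightness. The middle value was exceeded by 0 of 10 neuron, 2 of 12 astrocyte, 2 of 7 endothelial, 3 of 9 fibroblast and mural, 4 of 10 oligodendrocyte and 4 of 8 border macrophage markers. The upper quartile was exceeded by 4 border macrophage markers, 1 oligodendrocyte and 1 endothelial marker. The mean of the microglia list was 10.92 to 11.15 in wild-type and 11.02 to 11.13 in fosB-null arrays, that of astrocyte markers 7.27 to 7.47 and 7.27 to 7.45, that of fibroblast and mural markers 7.28 to 7.46 and 7.36 to 7.57, and that of neuron markers 6.98 to 7.08 in each group. The mean of 8 border macrophage markers was 9.15 to 9.37 in wild-type and 9.25 to 9.48 in fosB-null, that of 10 oligodendrocyte markers 8.18 to 8.42 and 8.15 to 8.34, and that of 7 endothelial markers 7.85 to 8.01 and 7.86 to 8.04. The Fosb probe set itself gave 8.02 ± 0.11 in wild-type and 7.90 ± 0.13 in fosB-null (SD, n = 3 each). It had an adjusted limma p of 1, and whether its probes lie in the mutated stretch was not analysed here, so it does not check the genotype.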

How the data were processed

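RNA (100 ng per sample) from 6 samples of cultured microglia was measured on Affymetrix whole-transcript arrays. The authors deposited log2 signals, 1 per probe set and array. The submitters' processing notes name Affymetrix Expression Console. Its version, the summary method and the normalization were not stated. That the scale is log2 follows from the range of 1.73 to 14.6, with array medians of 7.76 to 7.92.

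The test was limma 3.58.1 under R 4.3.3 (lmFit, eBayes, two-sided, no block, no filter) over the 23410 probe sets with a gene symbol. The fit was run on simulated data with independent arrays, so that run does not check it under pairing or exact ties. P-values were adjusted by Benjamini-Hochberg with a threshold of 0.05. Depth has no counterpart here, and 3 arrays per group limit the precision. Deviations of same-numbered arrays from their group means correlated at 0.91, 0.82 and 0.82 (0.72, 0.33 and 0.32 over the 3520 probe sets with no tie), so the numbers pair the arrays. The pairing comes from the values.

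Other lists use each gene's probe set with the highest mean, and up to 3 genes with the lowest p are named per list. Genes outside that rule are marked. The members, lists and rules were chosen with earlier results of these data known. Alternatives were 2 kinds of replicate block, median centring, quantile normalization, leaving out the dimmest 40%, other tested sets, an intensity trend and leaving out arrays.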

Additional observations from a re-analysis of the deposited data

How the results depend on the processing

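No member probe set passed the adjusted threshold under any of the 17 alternatives, and the lowest adjusted p was 0.415, for Bnip3 probe set 10568785 under a random replicate block. That random block (limma, duplicateCorrelation) gave 2 of 12 members an unadjusted p under 0.05, Bnip3 probe set 10568785 at 0.0218 and Pfkfb3 at 0.0350, where 9.63% of all probe sets had one. Over all tested probe sets 1 was called, against 0 with the replicate number as a fixed block, 47 with the random block and 0 to 2 with arrays left out, among them 2 without wild-type array 3. The fixed replicate block changed no call on a member. The members' median difference moved by less than the SD of the 3 pair medians, 0.083. That is a loose measure taken from the same values. The median was 0.00 without wild-type array 2 and 0.02 without both arrays numbered 2, against -0.05 over all arrays. Its sign thus depended on the arrays numbered 2. The difference changed sign in 17 of 204 cases, and 5 of the 12 probe sets never did so: Vegfa, Pfkfb3, both of Bnip3, and Hk1 probe set 10369541. Their size still depended on the arrays kept: with arrays left out it ran from -0.28 to -0.06 for Vegfa, -0.23 to -0.05 for Pfkfb3, -0.32 to -0.05 for Bnip3 probe set 10414269, -0.20 to -0.04 for Bnip3 probe set 10568785 and -0.13 to -0.0047 for that Hk1 probe set. Hk1 probe set 10414661 was at -0.00038 with quantile normalization and -0.016 with median centring. With arrays left out, including both arrays of a number (added after seeing the data), differences ranged from -0.14 to 0.18 for Hk1 probe set 10414661, -0.48 to 0.12 for Egln3, -0.047 to 0.12 for Slc16a3, -0.12 to 0.071 for Pfkp, -0.018 to 0.14 for Pdk1, -0.016 to 0.11 for Slc2a1 and -0.012 to 0.10 for Hk2.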

Other observations

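The 16 probe sets that list Hk1 beside Rpl17 were left out of the comparisons above, because a probe set with several symbols names no single gene. Their log2 signal in wild-type arrays ran from 11.49 to 13.57. Their differences, fosB-null minus wild-type, ran from 0.00 to 0.04, with medians of 0.03, 0.00 and 0.00 in the 3 pairs.

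Border macrophage markers and microglia markers were also read by pair. Of 8 measured border macrophage markers, 6 were above wild-type and 2 at a difference of 0, with a median of 0.12 and 0 past the adjusted limma threshold, and 0 at an unadjusted p under 0.05. The mannose receptor gene Mrc1 differed by 0.27, with 0.29, 0.55 and -0.03 in the pairs. Of 14 microglia markers, 10 were above wild-type, 3 below and 1 at 0. Their median difference was 0.07 in pair 1, -0.0046 in pair 2 and 0.02 in pair 3. In pair 2, 8 of the 14 were lower, 2 tied and 4 higher, with Olfml3 at -0.46. The purinergic receptor gene P2ry13, with the lowest p of the list, differed by 0.27, with 0.45, 0.32 and 0.03 in the pairs. No microglia marker had an unadjusted limma p under 0.05.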
